A study of Mus musculus with 2 samples.

Results

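A small set of barcodes in this single-cell RNA sequencing experiment carried almost no mitochondrial transcripts. The low-mitochondrial barcodes were chosen by 2 values, at least 500 detected genes and under 2% of unique molecular identifiers (UMIs, each standing for 1 captured transcript molecule) from genes whose symbol begins with mt-. The library labelled oil held 165 of them and that labelled tamoxifen 89, which makes 254 of 15085 barcodes. They were set against the comparison barcodes, 6673 and 6383 barcodes with at least 500 genes and 2% to 10% mt- UMIs. The leukemia was grown from mouse fetal liver cells with floxed Usp18 alleles. They also carried UBCER-Cre, a Cre recombinase driven by the broadly active ubiquitin C promoter that tamoxifen switches on, and had been transduced with an MSCV-IRES-GFP retrovirus encoding AE9a, a truncated AML1-ETO fusion. Secondary recipients received oil or tamoxifen when they became ill, and live GFP+ Lin- c-Kit+ splenocytes were sorted 3 days after injections began. Each library pools 3 mice and each treatment has 1 library, so no difference between the libraries has a replicate check and no p-value is given. The labels do not settle the genotype: the genotype and treatment fields name Usp18f/f cells with oil and Usp18delta/delta cells with tamoxifen, whereas the treatment protocol names Usp18+/f cells and a heterozygous depletion.

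Mitochondria hold a small circular genome that encodes 13 respiratory chain proteins. Its transcripts are part of the polyadenylated RNA of most cells, in a share that varies among them. The share of mt- reads is a common measure of the state of a cell in droplet sequencing. RNA of the cytoplasm, of mitochondria and of the nucleus are captured together from an intact cell, whereas a nucleus, a cell fragment or a cell that has lost contents gives them in other proportions. Which of these the barcodes were was not tested. AE9a leukemia cells of this sort are immature blasts that express c-Kit, the stem cell factor receptor.

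Both libraries were of like depth, with 7774 and 7311 barcodes and 70239576 and 65028672 UMIs. Among all barcodes of 500 or more genes and up to 10% mt- UMIs, the low-mitochondrial barcodes were 2.41% with oil (95% exact binomial interval 2.06 to 2.80) and 1.38% with tamoxifen (1.11 to 1.69). All intervals here are 95% intervals and cover counting error only. These barcodes were shallow. Their median depth was 1212 UMIs with oil (683 to 6699) and 1651 with tamoxifen (625 to 9029), against 8826 and 8306 UMIs in the comparison barcodes. They detected a median of 794 and 953 genes, against 2834 and 2610. Their median mt- share was 0.984% and 1.05%, against 6.87% in the comparison barcodes of each library, and a typical low-mitochondrial barcode held 12 or 15 mt- UMIs in place of 635 or 598. Together they gave 0.381% and 0.303% of all UMIs. Just inside the threshold, at 1.75% to 2% mt-, lay 12 and 10 barcodes with median depths of 1510.5 and 2736 UMIs. Just outside it, at 2% to 2.25%, lay 9 and 10 barcodes with 4411 and 3921 UMIs. In steps of 0.5% of mt- share from 0 to 2%, 14, 70, 56 and 25 barcodes fell with oil and 6, 36, 23 and 24 with tamoxifen, so both libraries had a small local peak at 0.5% to 1%. The wider step from 2% to 3% held 70 and 80 barcodes, and that from 6% to 8% held 3223 and 2972. The libraries shared 14 barcode sequences, of which 1 was a low-mitochondrial barcode in the oil library and 0 in the tamoxifen library.

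**Figure D1:**
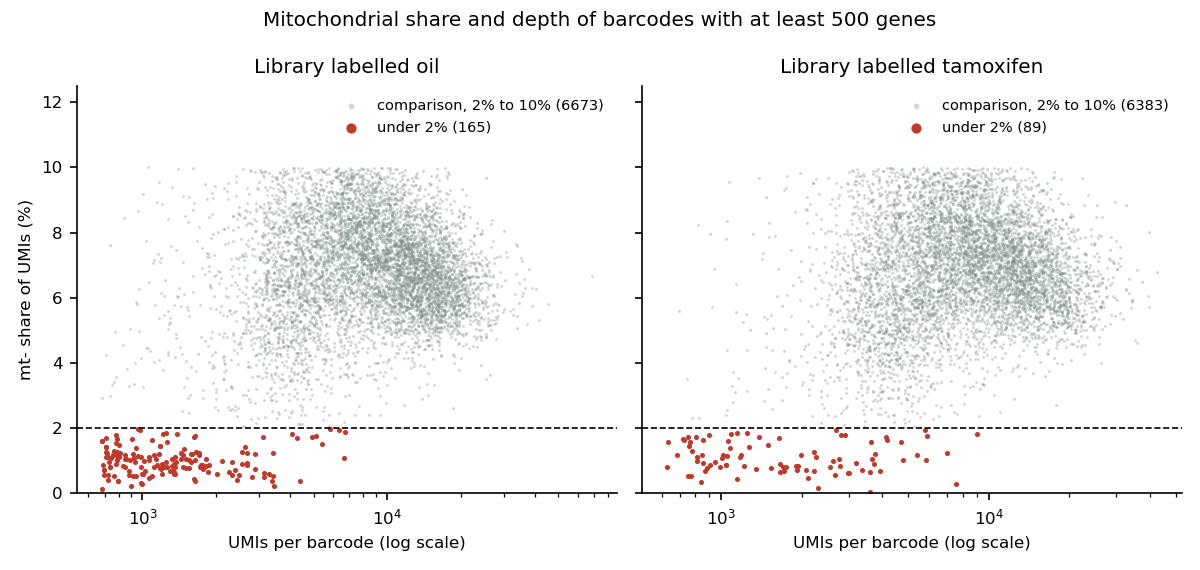
Each point is 1 barcode of 500 or more genes and up to 10% mt- UMIs, with its UMIs on a log axis and its mt- share in percent, 1 panel per library. The 165 and 89 low-mitochondrial barcodes below the dashed 2% line lie mostly at the shallow end, with median depths of 1212 and 1651 UMIs against 8826 and 8306 above the line.

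The sort was on leukemic blasts, and the low-mitochondrial barcodes carried the transcripts of such cells. UMIs of at least 1 of Kit, Cpa3, Gata2, Gata1 and Runx1 were found in 144 of 165 barcodes with oil (87.3%, 81.2 to 92.0) and in 82 of 89 with tamoxifen (92.1%, 84.5 to 96.8), against 99.6% of the deeper comparison barcodes in each library. Runx1, the transcription factor whose gene gives the AML1 part of the fusion, was read at 1002 CPM (counts per 1000000 non-mitochondrial UMIs) with oil and 899 CPM with tamoxifen, near the 864 and 854 CPM of the comparison barcodes. Kit itself was found in 55 barcodes (33.3%) and 29 barcodes (32.6%), against 66.4% and 69.4% of the comparison barcodes, and its summed level was 253 and 324 CPM against 183 and 248. Among barcodes of matched depth, 1000 to 2500 UMIs, the direction turned, with 264 against 628 CPM with oil (-1.25, -1.86 to -0.70) and 177 against 755 CPM with tamoxifen (-2.10, -3.24 to -1.15). No cell class in a c-Kit+ sort is known to lack these genes, so the share that free RNA alone would give could not be measured. Cd34 and Ptprc, the gene for CD45 (looked up after values were seen), had 0 UMIs in the low-mitochondrial barcodes and 5 and 9 UMIs in all comparison barcodes with oil, so they mark neither set. Markers of T cells, B and plasma cells and neutrophils, which the lineage gate removes, had 0 UMIs in the low-mitochondrial barcodes of both libraries, a count that allows up to 2.21% of barcodes with oil and 4.06% with tamoxifen to hold such a UMI. At these depths it does not limit the share of barcodes from such cells. Monocyte, macrophage and dendritic markers had 6 and 4 UMIs. Megakaryocyte and platelet markers had 45 and 26 UMIs in 20% and 24.7% of barcodes, against 63.8% and 57.3% of the deeper comparison barcodes. Their summed level was not lower, at 170 against 147 CPM with oil and 134 against 126 CPM with tamoxifen. Globin UMIs exceeded 1% in 13.3% and 12.4% of low-mitochondrial barcodes, against 19.8% and 19.6%.

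Usp18, the targeted gene, had 2 UMIs with oil and 5 with tamoxifen in the low-mitochondrial barcodes, too few to compare. In the comparison barcodes it stood at 6.02 CPM with oil and 16.5 CPM with tamoxifen, so its counts were not lower in the library labelled as depleted. Type I interferon-stimulated genes were also higher with tamoxifen in the comparison barcodes, with a summed log2 ratio of 0.46 (0.45 to 0.47). Whether the 2 are linked was not tested. The exons that the alleles lose are not given in the sources used here, and 3′ counts outside them would not check a deletion. Treatments are therefore named below only as the labels of the libraries.

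The genes were then compared between low-mitochondrial and comparison barcodes within each library, to see what else differed besides the mt- genes that set the rule. Reads of all barcodes of a set were summed per gene, mt- genes were left out of the total, and the log2 ratio of CPM in low-mitochondrial over comparison barcodes was taken in each library. Of 1947 genes measured, 31 were at least 2-fold higher in both libraries (1.59%) and 7 were at least 2-fold lower (0.360%). The median log2 ratio over all of them was 0.03 with oil and 0.09 with tamoxifen. Scaling by trimmed mean of M values moved those medians to -0.11 and -0.08 and the counts to 18 higher and 15 lower, so 54.5% of calls were higher in place of 81.6%. The ratio had the same sign in both libraries for 1534 genes (78.8%). A gene was measured where either set supplied enough UMIs, and 364 of the 1947 genes, 19 of the 31 higher ones among them, passed only through the low-mitochondrial barcodes. The 31 higher genes were long and had many exons. Their median exonic length was 7461 bases in 19 exon blocks, against 4177 bases in 9 blocks for all genes measured. The 7 lower genes had 3682 bases in 5 blocks. The 19 and 364 genes that passed only through the low-mitochondrial barcodes are part of these medians and of the length groups below. Across 5 equal groups of genes from short to long exonic length, the median log2 ratio ran -0.26, -0.10, 0.02, 0.19 and 0.43 with oil and -0.19, -0.10, 0.10, 0.32 and 0.40 with tamoxifen. Among barcodes of matched depth, 1000 to 2500 non-mitochondrial UMIs, that order was lost, and the group of the longest genes stood at -0.39 and -0.40.

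**Figure D2:**
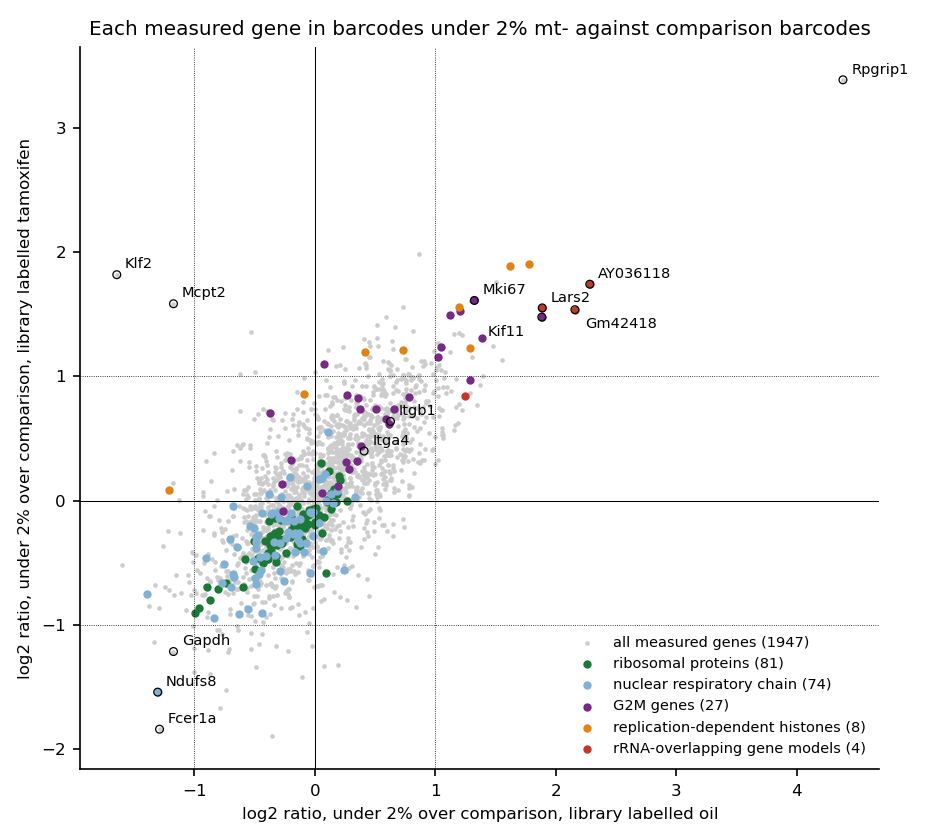
Each point is 1 of 1947 measured genes, placed by its log2 ratio of low-mitochondrial over comparison barcodes with oil (x axis) and with tamoxifen (y axis); dotted lines mark a 2-fold difference and coloured points belong to 5 gene lists. Rpgrip1 stands alone at 4.38 and 3.38, the rRNA-overlapping models and several histone and mitotic genes lie at the upper right, Gapdh, Ndufs8 and Fcer1a at the lower left, and Klf2 and Mcpt2 have opposite signs in the 2 libraries.

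The most extreme gene was Rpgrip1 (chr14:52110704-52163546, plus strand, mm10), which encodes a scaffold protein of the photoreceptor connecting cilium. It had 80 UMIs in 56 low-mitochondrial barcodes with oil and 31 UMIs in 23 barcodes with tamoxifen. It passed the count minimum only through these barcodes. Its level was 302 CPM against 14.5 CPM in the comparison barcodes with oil, and 159 against 15.3 CPM with tamoxifen. The log2 ratios were 4.38 (4.03 to 4.71) and 3.38 (2.82 to 3.90), and no other gene came near them. The pattern held at equal depth. With every barcode thinned at random to 1000 non-mitochondrial UMIs, Rpgrip1 was seen in 25.7% and 19.0% of low-mitochondrial barcodes against 1.64% and 1.65% of comparison barcodes. Among barcodes of 1000 to 2500 UMIs its level was 391 against 30.8 CPM with oil and 294 against 47.4 CPM with tamoxifen. Along the mt- share it dropped at the threshold itself, from 289 CPM at 1% to 2% to 25.8 CPM at 2% to 3% with oil, and more gradually with tamoxifen, from 145 to 57.6 and then 27.3 CPM at 3% to 4%. The 3′ end of Rpgrip1 overlaps Supt16 (chr14:52160414-52197416, minus strand), a subunit of the FACT histone chaperone. Supt16 was higher as well, with 140 and 71 UMIs and log2 ratios of 1.40 (1.15 to 1.64) and 1.01 (0.65 to 1.34). The strand setting of the counting is not given in the sources used here, so reads of this overlapping pair cannot be told apart with certainty.

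Gene models that overlap ribosomal RNA sequence were higher over all barcodes. Ribosomal RNA is the bulk of cellular RNA but has no long poly(A) tail, and models such as Gm42418 and AY036118, which lie on opposite strands of the same stretch of chromosome 17, collect its stray reads. Gm42418 (chr17:39846958-39848788, plus strand) had 2419 UMIs in 164 of 165 barcodes with oil and 1232 UMIs in 87 of 89 with tamoxifen. That was 9145 against 2048 CPM with oil and 6327 against 2182 CPM with tamoxifen, log2 ratios of 2.16 (2.10 to 2.22) and 1.54 (1.45 to 1.62). A barcode with oil held 214 of these UMIs, the most in any low-mitochondrial barcode. AY036118 stood at 1516 against 312 CPM and at 1248 against 373 CPM. Lars2, the gene of the mitochondrial leucyl-tRNA synthetase, is on the list as a model often read together with them, and stood at 197 against 53.1 CPM and at 159 against 54.4 CPM. All 4 models on the list were above 0 in both libraries, as were 860 of all 1947 genes, and 3 were at least 2-fold higher, beside 1.59% of all genes. Of these, Lars2 passed the count minimum only through the low-mitochondrial barcodes. The list summed to 1.12% of non-mitochondrial UMIs with oil against 0.255%, and to 0.799% with tamoxifen against 0.275%. At 1000 UMIs per barcode the median low-mitochondrial barcode held 8 and 7 of these UMIs, and the median comparison barcode 2 in each library. At 1000 to 2500 UMIs the summed log2 ratio was smaller, 1.31 and 0.89, and Gm42418 in the comparison barcodes was at 4881 and 5366 CPM there, above its level over all depths. Under 1500 UMIs, the depth of 107 low-mitochondrial barcodes with oil and 42 with tamoxifen, the list stood at 0.92 (0.80 to 1.04) and 0.25 (0.09 to 0.41) over the 87 and 44 comparison barcodes of that depth. Gm42418 was there at 12493 against 7239 CPM with oil and at 11808 against 11262 CPM with tamoxifen, a log2 ratio of 0.07 (-0.11 to 0.25) that holds 0. In the few low-mitochondrial barcodes with over 5000 UMIs, 6 with oil and 7 with tamoxifen, the list was at -0.10 in each library over comparison barcodes of that depth, with intervals that hold 0.

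Histone genes were higher too. Most histone mRNAs are made in S phase, are not polyadenylated, and end in a conserved stem-loop that binds the protein SLBP, so a poly(A)-primed 3′ assay reads them poorly. Of 67 such genes in the files 44 carry the stem-loop in a GENCODE transcript, a motif found in only 55 of 55450 genes (0.0992%). The loops of the 3 measured genes that were at least 2-fold higher and carry one follow with 5 bases on either side, to show the element that takes the place of the poly(A) tail. Capitals mark the 16 bases that match the histone stem-loop, searched on the sense strand of GENCODE transcripts of mm10 (GRCm38).
Hist1h1e (chr13:23620629-23622558, minus strand): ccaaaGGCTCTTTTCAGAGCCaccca
Hist1h4d (chr13:23581598-23582735, plus strand): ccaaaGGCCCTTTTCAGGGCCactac
Hist2h2ac (chr3:96220361-96220880, minus strand): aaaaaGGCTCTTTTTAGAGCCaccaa
In these 3 annotated transcripts 1153, 770 and 57 bases follow the loop, so the models of Hist1h1e and Hist1h4d run far past the processing site. Hist1h1e, a linker histone, had 147 and 106 UMIs in the low-mitochondrial barcodes, 556 against 180 CPM with oil and 544 against 147 CPM with tamoxifen. Its log2 ratios were 1.62 (1.38 to 1.86) and 1.89 (1.60 to 2.16). Hist1h4d, a core histone H4 gene, stood at 200.4 against 58.5 CPM and at 308 against 82.4 CPM. The linker histone gene Hist1h1b, whose annotated transcript holds no match to the motif, stood at 767 against 315 CPM and at 565 against 241 CPM. Of the 8 histone genes measured 4 were at least 2-fold higher, beside 1.59% of all genes, 6 were above 0 in both libraries, beside 860 of 1947, and Hist1h2ap (-1.21 and 0.08) and Hist1h2bc (-0.09 and 0.86) had ratios of mixed sign. Hist1h4d and Hist2h2ac passed the count minimum only through the low-mitochondrial barcodes, so the share of calls was favoured by that filter. At 1000 UMIs per barcode, 34.7% and 38.1% of low-mitochondrial barcodes held at least 5 histone UMIs, against 8.89% and 6.78% of comparison barcodes.

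Genes of G2 phase and mitosis were higher as well. Of 27 measured genes of the G2M list 7 were at least 2-fold higher in both libraries, beside 1.59% of all genes. Above 0 in both libraries were 23 of the 27, beside 860 of all 1947. The list summed to 1.31% of non-mitochondrial UMIs against 0.946% with oil, and to 1.13% against 0.764% with tamoxifen, log2 ratios of 0.46 (0.41 to 0.51) and 0.56 (0.50 to 0.62). Mki67, which coats mitotic chromosomes and marks cycling cells, had 355 and 243 UMIs. It stood at 1342 against 536 CPM with oil and at 1248 against 409 CPM with tamoxifen. Kif11, the kinesin that pushes spindle poles apart, stood at 299 against 80.9 CPM and at 169 against 60.9 CPM. Prc1, which bundles the midzone microtubules in anaphase, stood at 340.2 against 119.7 CPM and at 329 against 97.4 CPM, and Top2a, the topoisomerase that untangles sister chromatids, at 650.2 against 319.7 CPM and at 539 against 242 CPM. Cenpe (1.39 and 1.31), Knl1 (1.30 and 1.61) and Hmmr (1.20 and 1.53), which act at kinetochores and spindles, were also at least 2-fold higher. At least Kif11, Prc1, Cenpe and Hmmr passed the count minimum only through the low-mitochondrial barcodes. The share of calls on this list was thus favoured by that filter. Cenpa (-0.26 and -0.08) was the member below 0 in both libraries, and Hmgb2, the most abundant member named, stood at 0.06 in each. S phase genes differed less, with summed log2 ratios of 0.25 and 0.17. Nuclear lamina gene Lmnb1 (1.15 and 1.34), the nuclear pore gene Ranbp2 (1.22 and 1.33) and the centrosome gene Pcnt (1.20 and 1.35) were among the other higher genes.

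The depth of the barcodes mattered for the size of these ratios. After thinning to 1000 UMIs the G2M list stood at 0.97 and 1.09 and 12 of its 25 measured genes were at least 2-fold higher, beside 4.0% of all genes in the thinned data, and at 1000 to 2500 UMIs it stood at 1.98 and 2.24. Of all 51 genes higher after thinning, 42 passed the count minimum only through the low-mitochondrial barcodes, so these shares of calls were favoured by that filter. In the thinned data 71.3% of low-mitochondrial barcodes with oil (61.4 to 79.9) and 55.6% with tamoxifen (42.5 to 68.1) held at least 10 G2M UMIs, against 28.7% and 20.4%. The median was 15 and 12 UMIs, against 5 and 4. The G2M list of the low-mitochondrial barcodes stood at 16493 and 14140 CPM in that depth range, and that of the comparison barcodes at 4184 and 3000.4 CPM. Above 5000 UMIs the 6 and 7 low-mitochondrial barcodes had the list at 7597 against 10098 CPM with oil (-0.41, -0.59 to -0.24) and at 9057 against 8178 CPM with tamoxifen (0.15, 0.00 to 0.29), so with oil the direction turned. Histones did the same there, at -1.48 (-2.14 to -0.90) with oil and 1.0 (0.75 to 1.25) with tamoxifen.

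**Figure D3:**
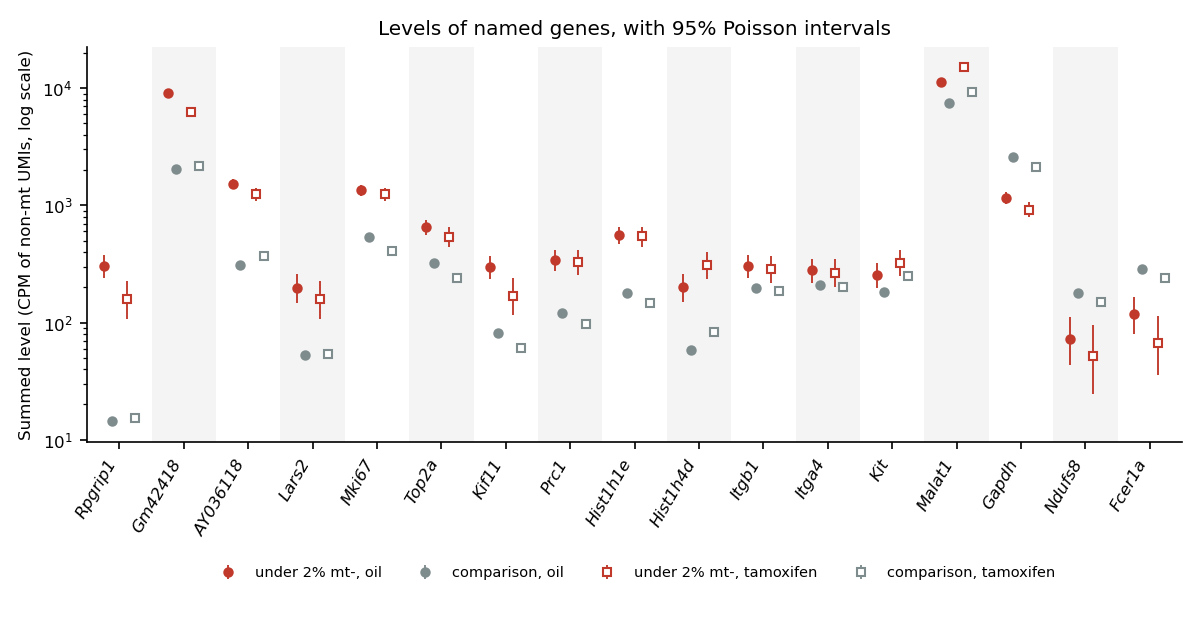
Summed levels in CPM of non-mitochondrial UMIs on a log axis, with exact 95% Poisson intervals, for named genes in low-mitochondrial (red) and comparison (grey) barcodes of the library labelled oil (filled circles) and tamoxifen (open squares). Rpgrip1 differs most, at 302 and 159 CPM against 14.5 and 15.3. Itga4 and Kit differ less, with Kit at 253 and 324 CPM against 183 and 248 over all barcodes.

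Among the genes at a lower level, Gapdh, the abundant glycolytic enzyme of the cytosol, had the largest counts. It had 305 UMIs in 104 low-mitochondrial barcodes with oil and 179 UMIs in 54 with tamoxifen, 1153 against 2601 CPM and 919 against 2131 CPM. The log2 ratios were -1.17 (-1.34 to -1.01) and -1.21 (-1.43 to -1.0). At 1000 UMIs per barcode it was seen in 54.5% and 50.8% of low-mitochondrial barcodes, against 89.5% and 82.9%. At matched depth it stood at -1.31 (746 against 1846 CPM) and -0.82 (647 against 1143 CPM). Other transcripts of cytosolic enzymes did not share this size. Of 19 measured genes on the list of abundant cytosolic transcripts, Gapdh was the one at least 2-fold lower (0.360% among all genes), and the list summed to -0.13 and -0.11. Pgk1 stood at -0.64 and -0.65 and Eno1 at -0.52 and -0.62, while Actb stood at 0.34 and 0.32. Fcer1a, the IgE receptor chain of mast cells and basophils, stood at 117 against 286 CPM with oil and at 66.8 against 239 CPM with tamoxifen. Ndufs8, a nuclear-encoded subunit of respiratory complex I, stood at 71.8 against 177 CPM and at 51.4 against 149 CPM. Mrpl42, Atox1, Map2k2 and Txn2 completed the 7 lower genes, each with at most 28 UMIs in a library.

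Itga4 and Itgb1, the chains of the VLA-4 integrin that binds fibronectin and VCAM-1, are the given markers of these barcodes together with mt-Nd6. Itgb1 was above 0 in both libraries over all barcodes, after thinning and at matched depth, and Itga4 was not. Itgb1 (chr8:128685654-128733200, plus strand) had 80 UMIs in 60 barcodes with oil and 56 UMIs in 37 with tamoxifen. Its level was 302 against 196 CPM and 288 against 185 CPM, log2 ratios of 0.63 (0.29 to 0.95) and 0.64 (0.23 to 1.02). At matched depth it stood at 0.90 (0.34 to 1.44) and 1.0 (0.17 to 1.77). Itga4 (chr2:79255426-79333123, plus strand) had 74 UMIs in 57 barcodes and 52 UMIs in 31. Its level was 280 against 211 CPM and 267 against 202 CPM, log2 ratios of 0.41 (0.06 to 0.74) and 0.40 (-0.02 to 0.79), and the interval with tamoxifen holds 0. At matched depth the ratio was 0.30 with oil and -0.72 (-1.89 to 0.27) with tamoxifen, from 9 UMIs in the low-mitochondrial barcodes. Neither gene reached the 2-fold limit, and many genes differed by more. In the thinned data Itga4 was seen in 26.7% and 27.0% of barcodes against 19.3% and 18.2%, and Itgb1 in 26.7% and 23.8% against 17.2% and 15.6%. The third integrin chain measured, Itgb7, stood at -0.30 and 0.52.

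mt-Nd6 (chrM:13552-14070, minus strand), a subunit of complex I, was the marker with the largest difference. It is the only protein gene on the light strand of mitochondrial DNA, so its RNA is read from the opposite strand to the other 12. Because the rule used the sum of the 13 mt- genes, their levels are low by choice, and what follows is their composition. mt-Nd6 gave 82 of 2871 mt- UMIs with oil, 2.86% (2.28 to 3.53), and 65 of 2221 with tamoxifen, 2.93% (2.27 to 3.72). In the comparison barcodes its shares were 0.100% and 0.113%, so the log2 ratio of shares was 4.83 (4.50 to 5.15) and 4.70 (4.32 to 5.05). It was higher even per non-mitochondrial UMI, against the direction of the rule, with log2 ratios of 2.08 (1.75 to 2.39) and 2.01 (1.63 to 2.36). With all UMIs counted in thinning, 21.4% and 27.7% of low-mitochondrial barcodes held an mt-Nd6 UMI at 1000 UMIs, against 6.74% and 7.06%. At matched depth it stood at 410 against 68.1 CPM with oil and 431 against 47.4 CPM with tamoxifen. Its 3′ end overlaps the 3′ end of mt-Nd5 on the other strand, so its count is uncertain while the strand setting is unknown, and mt-Nd5 also took more of the mt- UMIs, with log2 ratios of 1.67 and 1.12. The short overlapping genes mt-Atp8 (2.31 and 2.64) and mt-Nd4l (2.32 and 1.47) and mt-Nd3 (1.22 and 0.37) did so as well, from small counts. mt-Co1, a core subunit of complex IV, took 18.5% of mt- UMIs against 13.8% with oil and 21.4% against 16% with tamoxifen. mt-Cytb (-0.67 and -0.51), mt-Nd1 (-0.28 and -0.63) and mt-Atp6 (-0.28 and -0.33) took less.

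**Figure D4:**
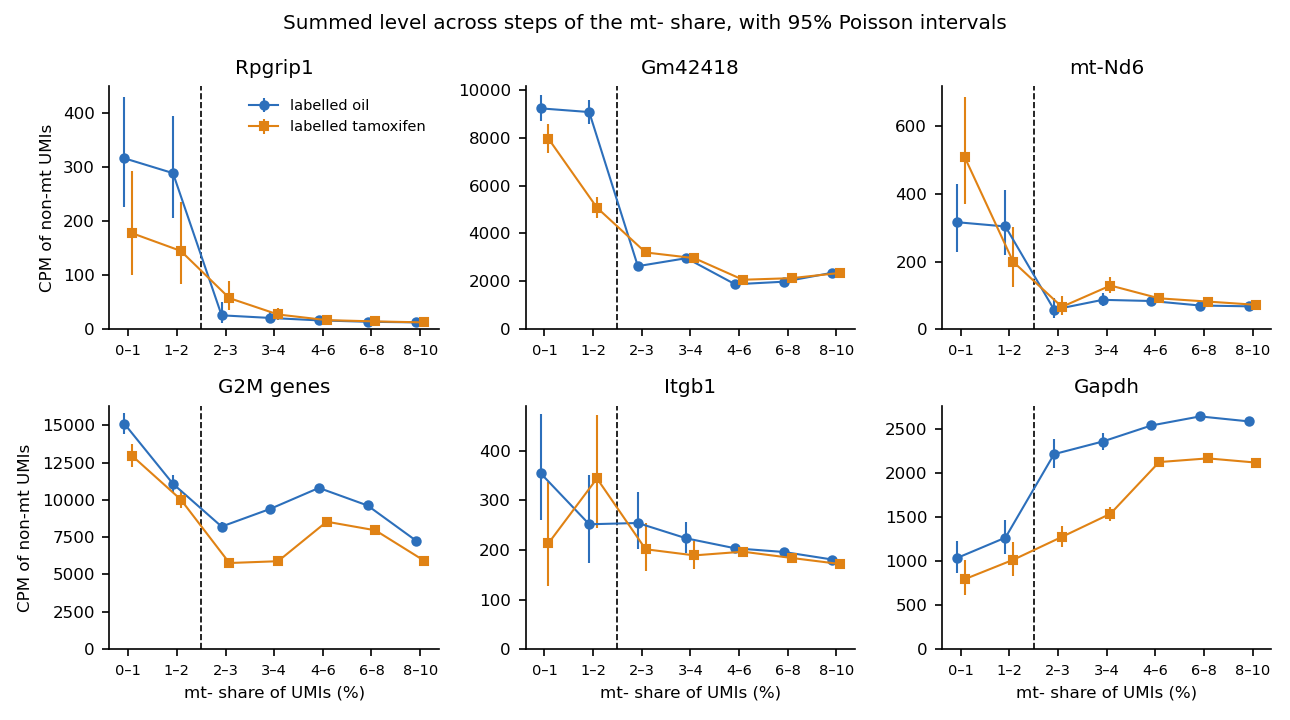
Summed level in CPM of non-mitochondrial UMIs, with exact 95% Poisson intervals, in 7 steps of the mt- share (x axis, percent) for 5 genes and the G2M list in each library; the dashed line marks the 2% threshold. With oil Rpgrip1 (289 to 25.8 CPM), Gm42418 and mt-Nd6 drop at the threshold. With tamoxifen their fall there is less sharp, and mt-Nd6 goes through 510, 199, 66.2 and 129 CPM from below 1% to the 3% to 4% step. Gapdh climbs across the threshold, and Itgb1 shows no step that its intervals would separate.

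Steps of the mt- share showed whether the difference began at 2%. Gm42418 stood at 9224 and 9069 CPM below 1% and at 1% to 2% with oil and at 2635 CPM at 2% to 3%, and with tamoxifen at 7964 and 5076 CPM and then 3207 CPM. mt-Nd6 went from 304 to 58.0 CPM across the threshold with oil. With tamoxifen mt-Nd6 stood at 510 CPM below 1%, 199 CPM (125 to 302) at 1% to 2% and 66.2 CPM at 2% to 3%. It was at 129 CPM (107 to 154) at 3% to 4%, an interval that overlaps that at 1% to 2%. Gapdh went from 1267 to 2216 CPM with oil, but with tamoxifen it rose more evenly, through 1015, 1275, 1539 and 2126 CPM from the 1% to 2% step to the 4% to 6% step. The G2M list stood at 11077 and 10024 CPM at 1% to 2%, at 8211 and 5769 CPM at 2% to 3% and at 10802 and 8538 CPM at 4% to 6%, and fell again to 7260 and 5932 CPM at 8% to 10%.

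Other gene lists showed smaller differences, and several changed direction with depth. The products of nuclear-encoded respiratory chain genes work with the mt- proteins. Of 74 of these genes measured, 58 were below 0 in both libraries, beside 674 of all 1947. The list had summed log2 ratios of -0.27 (-0.31 to -0.24) and -0.29 (-0.33 to -0.25). Only Ndufs8 was at least 2-fold lower. At matched depth the same list stood at 0.45 and 0.46. Ribosomal protein genes took 22.7% of non-mitochondrial UMIs against 26.1% with oil and 25.3% against 30.1% with tamoxifen. Of 81 measured, 61 were below 0 in both libraries, beside the same 674 of 1947. At matched depth the ribosomal protein list stood at 0.44 and 0.52. Nuclear-retained RNAs (Malat1, Neat1 and Kcnq1ot1 were measured) summed to 0.54 and 0.69 over all barcodes, to 0.00 and 0.15 after thinning and to -1.22 and -1.72 at matched depth. Malat1, a long noncoding RNA of nuclear speckles, went from 0.60 and 0.70 to -1.21 and -1.79. These lists thus had 1 sign over all barcodes and the other at matched depth. For nuclear-retained RNAs with oil, the low-mitochondrial barcodes went from 12430 to 10076 CPM and the comparison barcodes from 8527 to 23472 CPM. With tamoxifen the low-mitochondrial barcodes went from 16850 to 11786 CPM, and the comparison barcodes of matched depth stood at 38851 CPM. Those were only 241 of 6673 and 163 of 6383 comparison barcodes. Splicing factor genes stood at 0.37 and 0.45, with Prpf4b (1.01 and 1.05) at least 2-fold higher, and at 0.08 and -0.07 at matched depth.

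Mast cell and basophil genes were lower over all barcodes, after thinning and at matched depth. The list of 14 measured genes summed to -0.55 (-0.62 to -0.48) with oil and -0.19 (-0.27 to -0.12) with tamoxifen, to -1.06 and -0.56 after thinning and to -2.09 and -1.54 at matched depth, where 6 of 11 measured genes were at least 2-fold lower beside 13.9% of all genes. With tamoxifen the sign turned when the threshold was set at 3% mt- (0.21) and above 5000 UMIs (0.29, 0.15 to 0.43). Fcer1a was at least 2-fold lower over all barcodes, and Cpa3, the mast cell carboxypeptidase, stood at -1.60 and -0.52. At 1000 UMIs the median low-mitochondrial barcode held 5 and 6 UMIs of the list, and the median comparison barcode 9 in each library. Globins summed to 0.05 and -0.17, and to -1.94 and -0.84 at matched depth. Heat shock genes stood at 0.18 and 0.04 over all barcodes and at 1.15 and 1.11 at matched depth. Erythroid genes (-0.06 and -0.08), translation factors (0.01 and 0.01), stem and progenitor genes (0.16 and 0.13) and p53 targets (-0.21 and -0.16) differed little over all barcodes. At matched depth erythroid genes stood at 0.35 (0.21 to 0.49) and 0.32 (0.09 to 0.54), and stem and progenitor genes at -0.77 (-0.98 to -0.57) with oil. Of 28 lists 8 lay above 0 and 5 below 0 in both libraries with intervals that leave out 0.

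**Figure D5:**
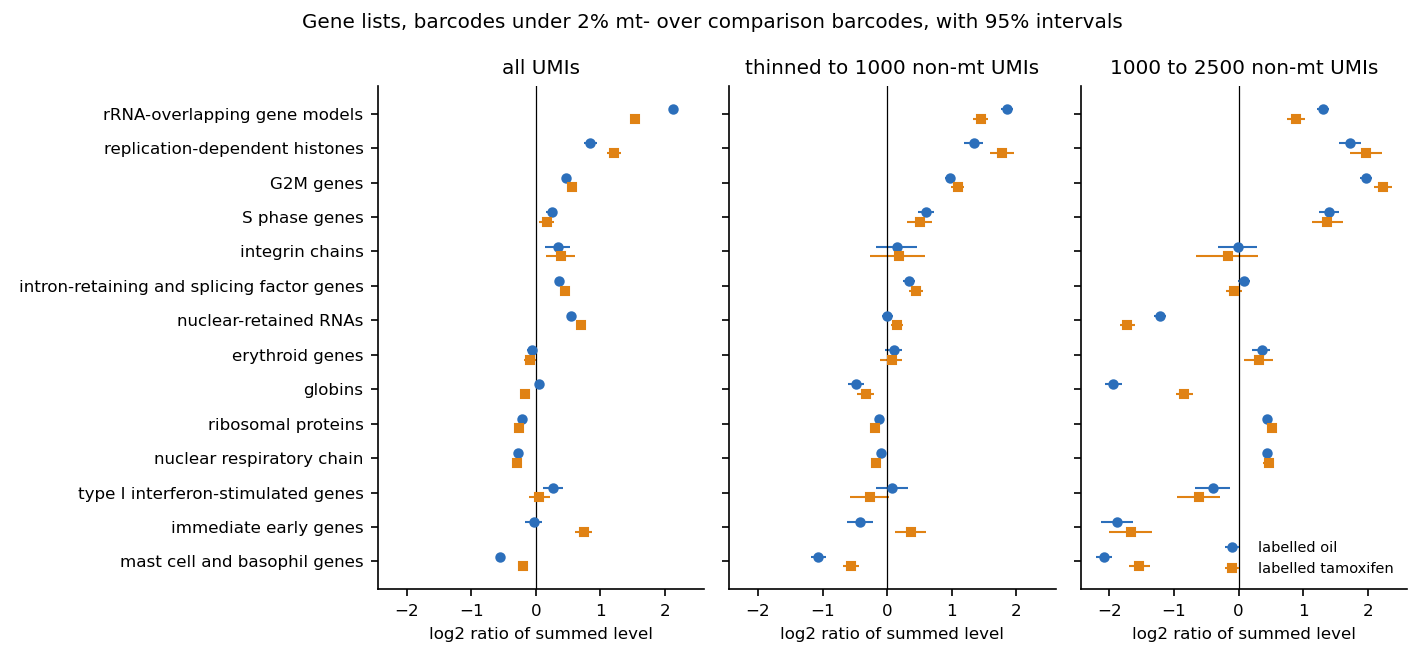
Log2 ratio of the summed level of 14 gene lists in low-mitochondrial over comparison barcodes, with 95% intervals, over all UMIs, after thinning to 1000 non-mitochondrial UMIs, and among barcodes of 1000 to 2500 UMIs; circles are oil and squares tamoxifen. The rRNA-overlapping models, histones and G2M genes lie above 0 in all 3 panels and mast cell genes below 0, whereas nuclear-retained RNAs go from 0.54 and 0.69 to -1.22 and -1.72 and ribosomal protein genes from -0.21 and -0.25 to 0.44 and 0.52.

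The comparison over all genes was repeated at equal depth, with a lower count minimum of 10 UMIs after thinning. After thinning, which left 101 and 63 low-mitochondrial barcodes and left out 64 and 26 with fewer UMIs, 51 of 1276 genes were at least 2-fold higher (4.0%) and 15 lower (1.18%). Of the 51 higher genes 42 passed the count minimum only through the low-mitochondrial barcodes, and with the minimum of 20 UMIs used over all barcodes 20 were higher and 8 lower. Among barcodes of 1000 to 2500 UMIs, 74 and 33 low-mitochondrial against 241 and 163 comparison barcodes, 55 of 447 genes were at least 2-fold higher (12.3%) and 62 lower (13.9%), and 39 of the 55 passed only through the low-mitochondrial barcodes. Of the genes called over all barcodes and measured again, 22 of 25 higher and 3 of 3 lower ones were called after thinning, and 5 of 6 higher and 1 of 2 lower ones at matched depth. Genes lower after thinning included the mast cell protease Cma1 (-2.13 and -2.02), Tespa1 (-1.53 and -2.30) and S100a6 (-1.45 and -1.13), and none of these was 2-fold lower in both libraries before it.

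The cell cycle and the other differences were then looked at together, by splitting the thinned barcodes at 10 G2M UMIs. This split was chosen after seeing the data. Under 10 there were 29 and 28 low-mitochondrial barcodes, and at 10 or more 72 and 35. Gm42418 was higher on both sides of the split, at 1.40 and 1.16 under 10 and at 2.37 and 2.05 above. Rpgrip1 stood at 4.49 (3.71 to 5.26) and 4.16 (3.03 to 5.21) above. Under 10 it stood at 3.69 (2.20 to 4.88) with oil from 6 UMIs and at 2.18 (-0.89 to 4.08) with tamoxifen from 2 UMIs, an interval that holds 0. Gapdh was lower on both sides, at -0.81 and -0.77 and at -1.74 and -1.47. Itga4 and Itgb1 had no common direction among barcodes with few G2M UMIs (-0.22 and 0.73 for Itga4, 0.18 and -0.21 for Itgb1) and were above 0 among those with many (0.84 and 1.01, 0.61 and 0.93).

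The low-mitochondrial barcodes were not uniform. Clustered on their own, they fell into 3 groups of 74, 104 and 76 barcodes, which are left unnamed. Their genes are given as a description, since the same values formed the clusters. Cluster 0 was led by Mcpt2, a mast cell protease, Cd200r3 and Nrip3, cluster 1 by Hmmr, Kif11 and Hist1h2ae, and cluster 2 by AY036118, Gm42418 and Hspe1. Their median depths were 1810, 1348.5 and 949.5 UMIs. Cluster 0 had the highest nuclear-retained RNAs (24186 CPM against 8307 and 7370) and mast cell genes (11141 CPM against 3884 and 4558). Cluster 1 had the highest G2M genes (19582 CPM against 6240 and 9747) and histones (5847 CPM against 1451 and 1375). Cluster 2 had the highest rRNA-overlapping models (15597 CPM against 7401 and 9169). Rpgrip1 was at 94.9 CPM in cluster 0 and at 371 and 269 CPM in clusters 1 and 2, all above the 14.5 and 15.3 CPM of the comparison barcodes. mt-Nd6 (207, 398 and 382 CPM), Itga4 (285, 256 and 289 CPM), Itgb1 (262, 289 and 372 CPM) and Gapdh (1267, 824 and 1096 CPM) varied less. With oil 26.7%, 41.8% and 31.5% of the barcodes were in clusters 0, 1 and 2, and with tamoxifen 33.7%, 39.3% and 27.0%. The groups depended on the settings, with 2 clusters at a lower resolution and 8 at a higher one, and adjusted Rand indices with these 3 of 0.367 and 0.353.

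Within the low-mitochondrial barcodes the tamoxifen library was set against the oil library. Of 4051 genes with enough UMIs 125 were at least 2-fold higher with tamoxifen (3.09%) and 176 lower (4.34%), and 412 (10.2%) had an interval that leaves out 0. Klf2, a transcription factor of quiescent blood cells, had the largest difference, with 7 UMIs with oil and 42 with tamoxifen (26.5 and 216 CPM, log2 ratio 3.03, 1.86 to 4.43). Mcpt2 followed with 19 and 63 UMIs (71.8 and 324 CPM, 2.17, 1.41 to 2.99), of which 37 with tamoxifen came from 1 barcode. Cd200r3 (1.57), Tsc22d3 (1.71), a glucocorticoid-induced gene, and Amigo2 (2.03) were higher as well, the last from 9 and 27 UMIs. Cma1, another mast cell protease, had the largest difference in the other direction, with 115 and 24 UMIs (-1.82, -2.52 to -1.17), of which 30 with oil came from 1 barcode. Among barcodes of 1000 to 2500 UMIs the sign turned for Cma1 (0.52) and for Amigo2 (-0.48), and the ratio of Mcpt2 was 1.11. Itga4 and Itgb1 stood at -0.07 each (-0.61 to 0.46 and -0.59 to 0.44). Kit stood at 0.35 (-0.17 to 0.87) and the interferon-induced Isg15 at 1.15 (-0.01 to 2.38) from 11 and 18 UMIs, close to its 1.25 in the comparison barcodes.

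Some of the differences from the comparison barcodes were smaller with tamoxifen than with oil. Rpgrip1 stood at 302 CPM with oil and 159 CPM with tamoxifen, a log2 ratio of -0.93 (-1.57 to -0.31), where the comparison barcodes had 0.07 (-0.06 to 0.21). The rRNA-overlapping models summed to 11190 and 7991 CPM, a log2 ratio of -0.49, against 0.11 in the comparison barcodes, a difference of -0.59 (-0.68 to -0.51). Histones went the other way, at 0.05 against -0.32, a difference of 0.37 (0.22 to 0.52). Immediate early genes differed by 0.77 (0.59 to 0.96) and mast cell genes by 0.35 (0.25 to 0.45) in the same sense. With 1 library on each side these intervals cover counting error only, and the median depth of the low-mitochondrial barcodes also differed between the libraries, at 1212 and 1651 UMIs. Among low-mitochondrial barcodes of 1000 to 2500 UMIs, Rpgrip1 stood at 391 CPM with oil and 294 CPM with tamoxifen, nearer to each other than over all depths. Immediate early genes were there at -1.88 and -1.66 over the comparison barcodes, and mast cell genes at -2.09 and -1.54.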

How the data were processed

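The single-cell libraries were made with the 10x Genomics 3′ V3 kit, 8000 cells targeted each. Per the labels and the study's methods, the authors mapped reads to mm10 and made the deposited counts (UMIs per gene and barcode, not normalized) with Cell Ranger. The submitters' processing notes also name Seurat. The strand setting of the counting is not given in the sources used here, so overlapping genes (Rpgrip1 and Supt16, Gm42418 and AY036118, mt-Nd6 and mt-Nd5, Prc1 and Rccd1, Gapdh and Iffo1) are uncertain.

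Barcodes with at least 500 detected genes were split by the share of UMIs in the 13 mt- genes, under 2% against 2% to 10%. No doublets were called or removed. UMIs were summed per library and set, mt- genes were left out of the totals, and log2 ratios were taken with exact conditional binomial intervals, shares with Clopper-Pearson intervals and CPM with Poisson intervals (95%). A gene was measured if the comparison barcodes held at least 20 UMIs and the low-mitochondrial barcodes held, or would hold at the comparison level, at least 20, in both libraries (10 after thinning). Within the low-mitochondrial barcodes, tamoxifen over oil was taken for genes whose UMIs summed to 20 or more over the libraries. With 1 library per group there was no test, and a call is a 2-fold difference in the same direction in both libraries. Comparisons were repeated after thinning barcodes to 1000 non-mitochondrial UMIs and among barcodes of 1000 to 2500. Named genes are Itga4, Itgb1 and mt-Nd6, the 10 highest and 10 lowest genes with at least 100 CPM in each comparison, up to 3 highest and 3 lowest per list, and Usp18, Isg15, Kit, Cd34, Malat1, Neat1, Xist and cluster leaders (Xist was at 0 UMIs in the low-mitochondrial barcodes). Other called genes (Supt16, Ranbp2, Pcnt), the remaining mt- genes and Ptprc were named after their values were seen. The barcodes and gene lists were chosen with earlier results of these data known. Positions and transcripts are from GENCODE (GRCm38), which matched 31011 of 31053 identifiers. Clusters were made with Scanpy 1.11.5 and leidenalg 0.10.2, scaling factors with edgeR 4.0.16 and DESeq2 1.42.0, the rest with Python 3.11.15, NumPy 2.4.6, SciPy 1.17.1 and pandas 2.3.3. Scripts were tested on simulated data. Alternatives changed the mt- and gene thresholds, depth, total, scaling, barcode weights, count minimum and the barcodes with other-type markers or many globin UMIs. One gene that the rule named is not reported here.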

Additional observations from a re-analysis of the deposited data

Results flagged for a closer look

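Klf2 and Mcpt2 differed from the comparison barcodes in opposite directions in the 2 libraries, which drew attention to them. The difference between the libraries was not tested, as each treatment has 1 library. Klf2, a Kruppel-like transcription factor, was at -1.64 (-2.96 to -0.60) with oil, from 7 UMIs in 5 low-mitochondrial barcodes, and at 1.82 (1.34 to 2.25) with tamoxifen, from 42 UMIs in 11 barcodes, with at most 12 in 1 barcode. Mcpt2, a mast cell protease, was at -1.17 (-1.91 to -0.53) with oil, from 19 UMIs in 13 barcodes, and at 1.58 (1.20 to 1.94) with tamoxifen, from 63 UMIs in 12 barcodes, of which 37 came from 1. Of 1947 genes 462 had an interval that leaves out 0 in both libraries, and 7 of these, 0.360% of the 1947, had opposite signs. Among barcodes of 1000 to 2500 UMIs Klf2 was at -4.53 (-7.59 to -2.66) with oil, from 2 UMIs, and at -1.79 (-3.26 to -0.63) with tamoxifen, from 6 UMIs. Mcpt2 was there at -4.91 (-6.79 to -3.55) with oil and at -2.26 (-4.16 to -0.87) with tamoxifen, from 4 UMIs each. The opposite signs of both genes were thus not seen at that depth, and these counts are under the minimum of 20 UMIs in the low-mitochondrial barcodes.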

How the results depend on the processing

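No paired analysis was possible because there is 1 library a treatment, and for the same reason no replicate could be left out. Low-mitochondrial barcodes were 3.41% with oil and 1.72% with tamoxifen from 300 genes, 1.40% and 0.873% from 750 genes, 1.23% and 0.649% under 1% mt-, and 3.44% and 2.61% under 3%. In place of 31 higher and 7 lower genes, TMM scaling gave 18 and 15, equal barcode weights 77 and 21, minimums of 1, 10 and 50 UMIs 281 and 203, 58 and 13, and 14 and 2, and matched depth 55 and 62 (5 and 1 of the same genes). Lower genes were 3 under 3% mt- and 4 with all UMIs as total. The share of calls that were higher was 81.6%, and 54.5% by TMM, 47.0% at matched depth, 58.1% at 1 UMI and 91.7% under 3% mt-. After thinning (51 and 15, 77.3% higher), under 3% mt- gave 28 and 9, minimums of 1, 20 and 50 UMIs gave 345 and 301 (53.4%), 20 and 8, and 6 and 4 (60%), and lower genes were 24 under 1% mt- (61.3%) and 32 with comparison barcodes up to 5% mt- (61.0%). Within low-mitochondrial barcodes, tamoxifen over oil (125 and 176, 41.5% higher) gave 44 and 96 under 1% mt- (31.4%), 38 and 113 at matched depth (25.2%), 214 and 283 with equal weights, 388 and 457 at 10 UMIs and 13 and 28 at 50 UMIs (31.7%). Lists above and below 0 (8 and 5) were 13 and 8 under 3% mt- and 5 and 11 by TMM, with 13 above by all UMIs, and below 11 at matched depth, 9 without ribosomal protein genes in the total and 9 by median ratio. The log2 share of mt-Nd6 (4.83 and 4.70) was 5.54 and 6.07 under 1% mt-, 3.18 and 2.76 under 3%, 3.801 and 3.71 against up to 5%, and 5.38 and 5.82 at matched depth. Resolution 1.0 gave 8 clusters.

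Values whose main interval left out 0 and that changed sign were the following, oil first where there are 2. Values whose main interval held 0 are not listed, though some turned as well, such as erythroid genes at matched depth. Under 1% mt-, integrins were -0.00684 and globins 0.0363 with tamoxifen, immediate early genes -0.43 with tamoxifen and stem genes -0.049 with oil. Under 3%, mast genes were 0.21, globins 1.36, Fcer1a 0.15 and Tespa1 0.17 with tamoxifen, S phase genes -0.0026 and -0.18, and Cma1 0.0705 with oil. Against up to 5% mt-, nuclear-retained RNAs were -0.0187 and S100a6 -0.59 with oil, and Kit -0.0190 and -0.34. At matched depth, respiratory chain genes were 0.45 and 0.46, ribosomal proteins 0.44 and 0.52, nuclear-retained RNAs -1.22 and -1.72, integrins -0.010 and -0.16, Kit -1.25 and -2.10, and Malat1 -1.21 and -1.79, with stem genes -0.77, interferon-stimulated genes -0.40, Mrpl42 0.19 and S100a6 -3.93 in oil, and splicing genes -0.0704, immediate early genes -1.66 and Neat1 -1.16 in tamoxifen. There the tamoxifen over oil ratio was -0.48 for Amigo2 and 0.52 for Cma1. With equal weights Kit was -0.13 with tamoxifen and S100a6 -0.45 with oil. Without globin-rich barcodes globins were 0.34 with tamoxifen, S100a6 -0.28 with oil and 0.0217 in tamoxifen over oil. In the split added after seeing the data, integrins were -0.20 and -0.0160, Itga4 -0.22 with oil and Itgb1 -0.21 with tamoxifen under 10 G2M UMIs, and globins 0.13 with tamoxifen at 10 or more. The cause of these changes was not tested. Each value was set against the mean distance from the main value to its interval limits. Of 1012 gene values 748 moved by no more than that distance, 246 by more, and 18 changed sign from a main interval that left out 0. Of 460 list values these numbers were 192, 243 and 25, and of 240 tamoxifen over oil values 226, 11 and 3. Depth is a limit, as 64 and 26 low-mitochondrial barcodes were too shallow to thin.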

Other observations

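Barcodes outside the 500-gene and 10% limits were not part of the comparisons. Under 2% mt- UMIs and with 300 to under 500 genes there were 71 barcodes with oil and 23 with tamoxifen, at median depths of 606 and 626 UMIs. Gm42418 stood there at 15324 CPM (14174 to 16542) and 15868 CPM (13836 to 18115). mt-Nd6 stood at 489.8 CPM (303 to 749) and 652 CPM (298 to 1238), Rpgrip1 at 233 CPM (112 to 429) and 289.8 CPM (79.0 to 742), and Gapdh at 746 CPM (511 to 1054) and 652 CPM (298 to 1238). Of the same gene range but with 2% to 10% mt- UMIs there were 20 and 6 barcodes. Rpgrip1 had 6 UMIs in the former (498.7 CPM, 183 to 1085) and 1 in the latter (289 CPM, 7.3 to 1610). In this gene range Rpgrip1 was thus not seen at a higher level under 2% mt-, from few UMIs.

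At the other end, the 731 and 713 barcodes with over 10% mt- UMIs had Rpgrip1 at 17.0 and 17.4 CPM, mt-Nd6 at 84.2 and 82.2 CPM and Gapdh at 2337 and 2022 CPM. Their Gm42418 level was 3880.1 and 3465 CPM, against 2048 and 2182 CPM for Gm42418 in the comparison barcodes, and their G2M list summed to 6891 and 5314 CPM.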
